A study of Mus musculus with 6 samples.

Results

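Opposite-strand noncoding RNAs are transcripts without an open reading frame assigned to them that are read from the strand facing a coding gene and take that gene's symbol with the ending os. They were taken from the gene tables as every row whose name ends in os, or in os and a digit, and whose RefSeq transcripts all carry the noncoding NR_ prefix. This gave 118 RNAs of 24054 genes in the tables, beside 115 distinct coding genes, called host genes here. Another 31 names with the same ending have a coding transcript and were not counted as members.

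RNA-seq was available for 3 populations of 1 double knock-in (DKI) mouse embryonic stem cell (ESC) line, with 2 independent replicates each. Every population therefore carries the same alleles, a Foxa2-Venus fusion in heterozygous and a Sox17-Cherry fusion in homozygous form. The d0 cells were undifferentiated ESCs sorted as Foxa2-Venus-neg/Sox17-Cherry-neg at day 0. The d3F cells were mesendoderm progenitors sorted as Foxa2-Venus-pos/Sox17-Cherry-neg after 3 days of Wnt3a and Activin A, and the d5FS cells were endoderm cells sorted as Foxa2-Venus-pos/Sox17-Cherry-pos after 5 days. Time, sorting gate and treatment change together between the populations and cannot be told apart. The comparisons ask which of these RNAs differ between ESCs, mesendoderm and endoderm, and what the host gene does in the same cells.

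Many mammalian promoters start transcription in both directions, and a noncoding RNA can leave the promoter of a coding gene head to head with it. Other opposite-strand RNAs begin inside a host gene or beyond its end and run across its exons or introns. Some are known to act on chromatin or on the RNA of the neighbouring gene, while for many no function is known. Genes of developmental transcription factors (TFs) and imprinted genes are well-known hosts of such RNAs.

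Expected counts summed to between 16457729 and 22768686 per library. The markers of the labels were found: Pou5f1, a core pluripotency TF, had 364 to 493 TPM (a level corrected for length and scaled to the same total in every library) in d0 and 11.2 to 21.1 in d5FS, and Cer1, a secreted endoderm marker, had 0.12 to 0.6 TPM in d0 and 87.9 to 92.2 in d5FS. The libraries did not keep strand. Reads over exon bases that an RNA shares with its host can therefore not be told apart, and the values of both genes are uncertain to that extent. Where an RNA lies in an intron of its host, reads of unspliced host RNA cannot be told from its own either. Their part was not tested. In sorted bulk samples, fewer cells of a type and less RNA per cell cannot be told apart either.

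Most of the RNAs were found at low counts. At least 1 count was recorded for 64 and 72 of the 118 in d0 replicates 1 and 2, for 66 and 87 in d3F, then for 72 and 86 in d5FS. Replicate 2 was the higher of the pair in all 3 populations. The same held over all genes with at least 1 count, with 16970 and 18642 in d0, 16835 and 18343 in d3F, then 16770 and 19846 in d5FS. It is thus not particular to these RNAs. The labels describe all libraries as depleted of ribosomal RNA. The study's sample list, however, names 1 library of each population mRNA and the other total RNA, without tying the names to replicate numbers. The part of such a library type in the difference between replicates was not tested. With at least 5 counts, the numbers were 37 and 36, 46 and 42, and 45 and 51, so that replicate 2 was higher in d5FS only. In all, 46 RNAs had counts in every library, 61 in 1 to 5 libraries, and 11 were listed at 0 throughout. These 11 were Atcayos, Ctrcos, Fhad1os1, Hoxd3os1, Nell1os, Nrg3os, Peg3os, Pla2g10os, Prkag2os1, Rab11fip4os2 and St8sia3os, and they were named after their values were seen. CPM values (counts scaled to the same library total) summed over the 118 RNAs were 43.3 and 51.7 in d0, 56.5 and 55.6 in d3F, then 104 and 91.9 in d5FS. Without Igf2os and Lhx1os the sums were 42.3 and 50.9 in d0, 53.2 and 47.5 in d3F, then 64.1 and 54.9 in d5FS.

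**Figure D1:**
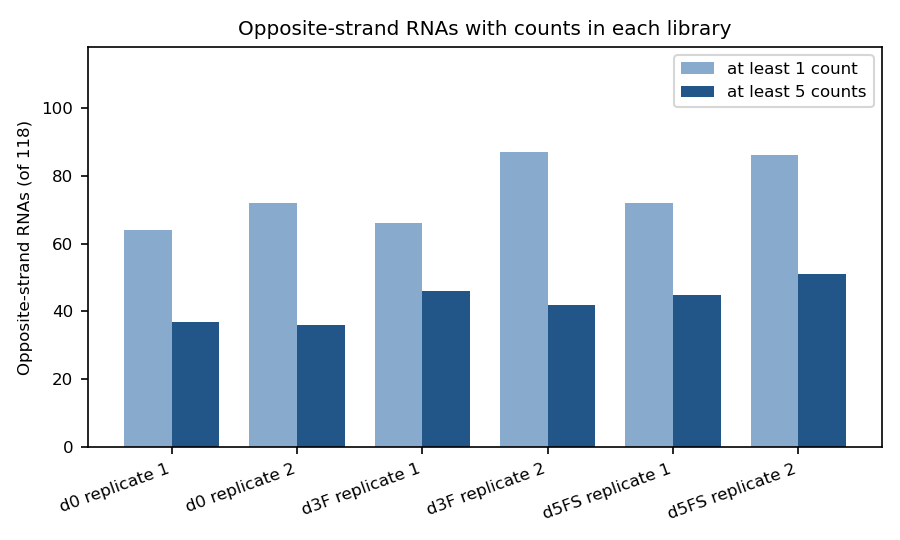
Number of the 118 opposite-strand RNAs (y axis) with at least 1 count (light bars) or at least 5 counts (dark bars) in each of the 6 libraries (x axis). The light bars are higher in replicate 2 of each population, with 72 against 64, 87 against 66 and 86 against 72 RNAs. The number of all genes with at least 1 count was also higher in replicate 2 of each population.

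The positions of 114 pairs could be read from GENCODE M21 on the mm10 build, and all 114 lay on opposite strands of 1 chromosome. G6bos, Msx1os, Peg3os and Toporsos had no gene of their name or accession there. Both genes overlapped with shared exon bases in 63 pairs and without any in 29. They lay head to head without overlap in 17 pairs and tail to tail in 5. In 30 pairs the start of the RNA was within 1000 bases of the host's start. A pair of labels needs care. Chd3os is annotated there as a protein-coding gene, although the tables give it only an NR_ transcript, and Rab26os, 497 bases long, holds the small nucleolar RNA gene Snord60.

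**Figure D2:**
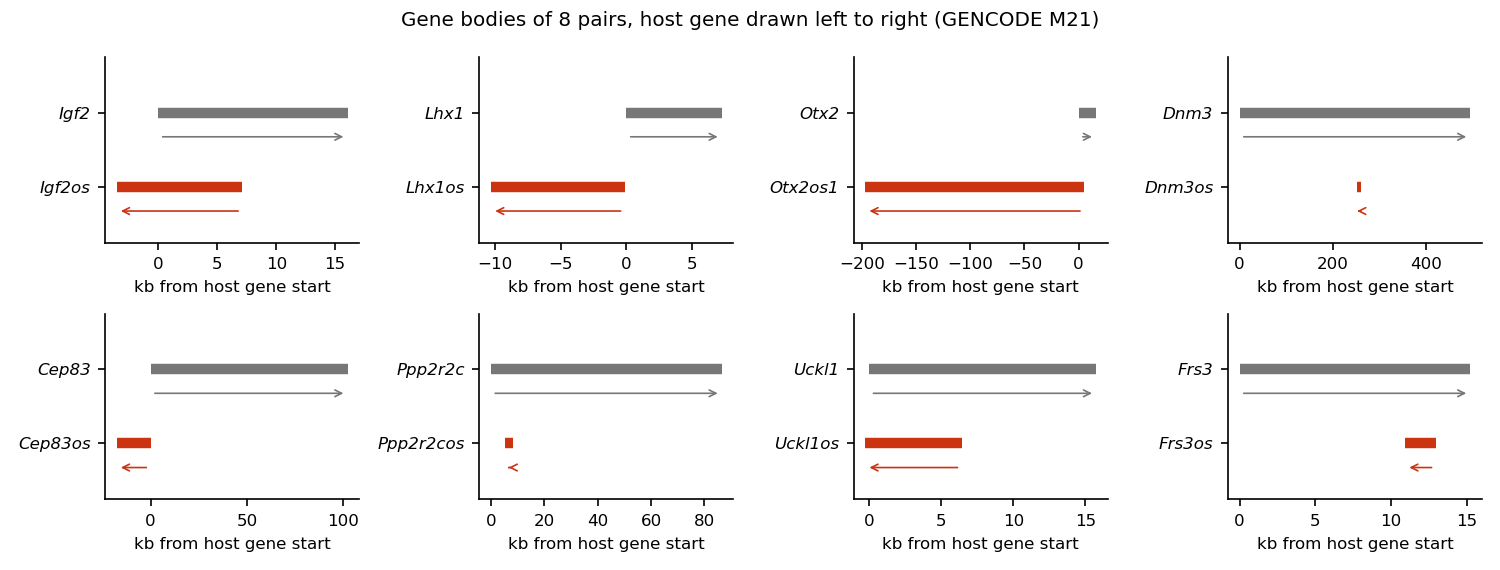
Gene bodies of the 8 pairs whose RNA differed between d0 and d5FS, in kb from the start of the host gene (x axis), with the host in grey above and the RNA in red below. Arrows give the direction of transcription. In GENCODE M21, Lhx1os and Cep83os lie head to head with their hosts, while the other 6 overlap them.

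Lhx1os and Cep83os are the head-to-head RNAs that rose in the data. The bases between their starts and those of Lhx1 and Cep83, outside both genes in GENCODE and in RefSeq, are shown to let the shared promoters be compared with that of Map2k3os, a head-to-head RNA that did not pass the thresholds. They are printed 5′ to 3′ on the strand of the RNA, from the RefSeq promoter table of GRCm38.p6, with CG dinucleotides in capitals. The positions are chr11:84525536-84525659 (plus strand) for Lhx1os, chr10:94688614-94688653 (minus strand) for Cep83os and chr11:60931868-60932032 (minus strand) for Map2k3os.
Lhx1os: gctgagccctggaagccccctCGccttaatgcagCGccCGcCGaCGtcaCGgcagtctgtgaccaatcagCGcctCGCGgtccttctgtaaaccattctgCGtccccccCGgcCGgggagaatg
Cep83os: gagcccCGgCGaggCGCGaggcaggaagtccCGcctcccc
Map2k3os: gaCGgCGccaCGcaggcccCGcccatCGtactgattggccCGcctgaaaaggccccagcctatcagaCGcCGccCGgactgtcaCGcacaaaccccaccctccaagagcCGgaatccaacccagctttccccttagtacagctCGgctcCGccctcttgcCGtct

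The stretch of Lhx1os held 12 CG in 124 bases, that of Cep83os 5 in 40 and that of Map2k3os 14 in 165. Per 100 bases these are 9.68, 12.5 and 8.48. The other uncalled head-to-head RNAs with such a stretch, Stamos and Fam120aos, had 12.9 and 23.5. Of these 3 uncalled RNAs, 1 lay below and 2 above both RNAs that rose, which is a description of 5 sequences.

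Between d0 and d5FS, 8 RNAs passed the thresholds, which were a log2 fold change beyond 1 either way and, over all genes, an adjusted p below 0.05 in the quasi-likelihood test of edgeR. Igf2os, Lhx1os, Otx2os1, Dnm3os, Cep83os, Ppp2r2cos and Uckl1os were higher in d5FS, and Frs3os was lower. Only 35 of the 118 RNAs had enough counts for the test, and the other 83 had at most 47.1 counts over the 6 libraries. The 8 are 22.9% of the 35, and 22.8% of all 14539 tested genes passed, or 16.1% of the 622 tested genes without a coding transcript. The share among the RNAs is thus near the background. The 7 higher RNAs stand beside 12.4% of all genes higher, and the lower one beside 10.4% lower. The median log2 fold change was 0.565 over the 35 RNAs, with genes at 0 in d0 set to their lower bound or not, 0.295 over the tested genes without a coding transcript and 0.017 over all genes. An RNA seen in 1 population only enters the test through that population, so the count and the median describe the 35 and not all 118.

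Fits without 1 library were also made. Each leaves a population with 1 library and fewer libraries to estimate the spread, so a lost call cannot be pinned on the library left out. From d0 to d5FS the log2 fold change in these fits was 4.74 to 4.86 for Igf2os, 1.34 to 1.55 for Uckl1os and 2.95 to 3.27 for Ppp2r2cos. For Dnm3os it was 3.44 to 8.57. Igf2os and Lhx1os passed in all 6 of these fits, and Uckl1os and Ppp2r2cos in none.

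**Figure D3:**
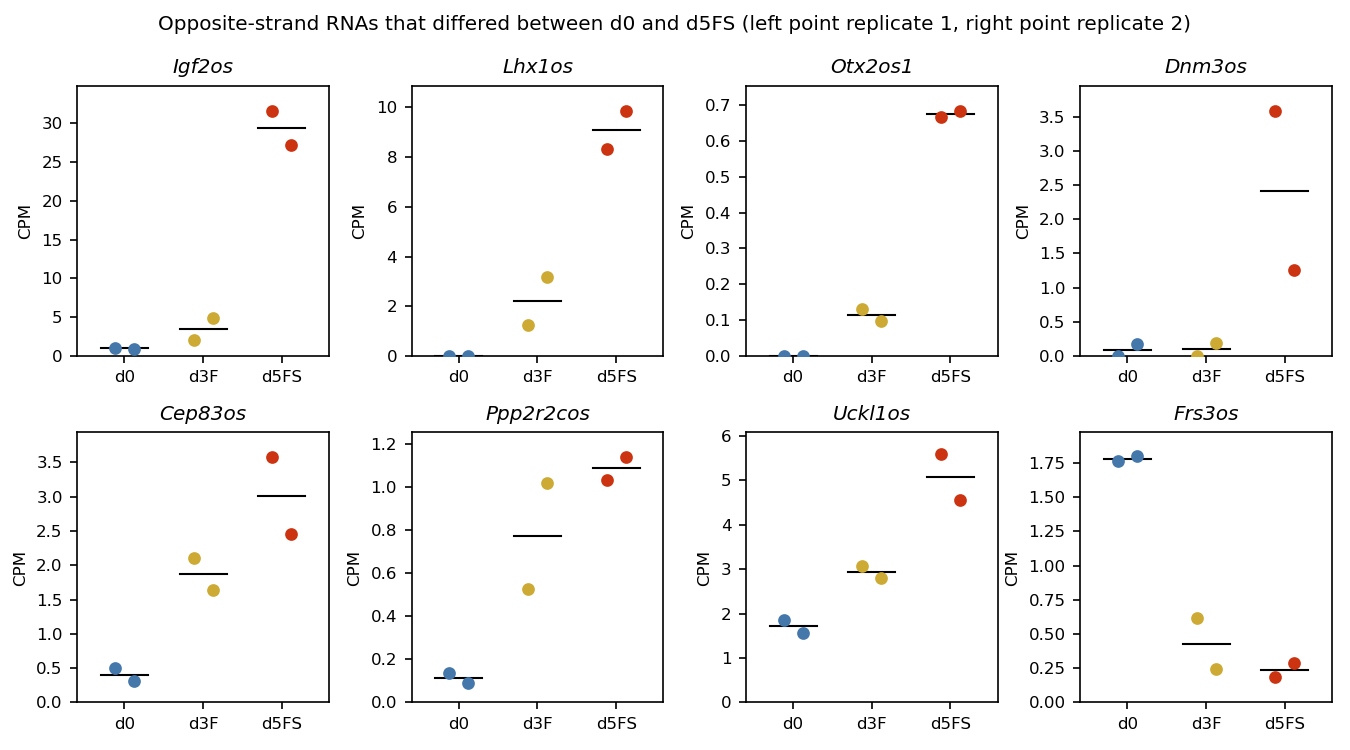
CPM (y axes, from 0, a scale of its own in each panel) of the 8 opposite-strand RNAs past the thresholds between d0 and d5FS, by population (x axis). Points are the 2 libraries of each population and bars their mean. In each panel both d5FS points lie on 1 side of both d0 points.

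The hosts of Lhx1os, Otx2os1 and Six3os1 are homeobox TFs. Lhx1, a LIM homeobox TF of the anterior mesendoderm, and Lhx1os lie head to head with 124 bases between them. Lhx1os (chr11:84525660-84535831, plus strand) shares no exon base with Lhx1 or another gene. It was counted at 0 in both d0 libraries, at 1.23 and 3.19 CPM in d3F, then at 8.32 and 9.85 CPM in d5FS. The 3 populations did not overlap.

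Against a floor of 3 counts per library in d0, Lhx1os was at least 16.4-fold higher in d3F (adjusted p = 0.0155) and at least 67.2-fold higher in d5FS (adjusted p = 0.00294). From d3F to d5FS its log2 fold change was 1.99 ± 0.62 (SE, adjusted p = 0.156), which did not pass. Lhx1 itself had 0.272 and 0.270 CPM in d0, 33.6 and 41.7 in d3F, then 70.8 and 63.2 in d5FS. It changed by a log2 fold of 7.01 ± 0.43 over the first step (adjusted p = 0.00178) and of 0.80 ± 0.30 over the second (adjusted p = 0.219). RNA and host were thus both called at the first step and neither at the second.

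Otx2os1 lies beside Otx2, a homeobox TF of ESCs, anterior endoderm and forebrain. In GENCODE M21 the start of the RNA, at chr14:48668708, is 5111 bases inside the host gene. There it shares 154 exon bases with Otx2, and exon bases with Gm49154 and Gm534. The counts are of RefSeq transcripts, and the RefSeq starts found for Otx2, on the minus strand, lie at 48667644 or below. Transcripts from these starts do not reach the GENCODE start of the RNA. No RefSeq start was found for Otx2os1, so the overlap of the counted transcripts is not known. The RNA was counted at 0 in both d0 libraries, at 3 and 2 counts in d3F, then at 11 and 12 counts in d5FS. These few counts make it at least 5.0-fold higher in d5FS than in d0 (adjusted p = 0.0131), and it lost this call without d0 replicate 2, d5FS replicate 1 or d5FS replicate 2. Otx2 had 29.5 and 5.53 CPM in d0, 108 and 159 in d3F, then 268 and 432 in d5FS, which is a d0 to d5FS change of 4.29 ± 0.72 in log2 (adjusted p = 0.00629). The d0 libraries of Otx2 lay far apart, both below those of d3F and d5FS.

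Six3os1 faces Six3, a TF of the forebrain and eye, with 106 shared exon bases, and also shares exon bases with 6 other genes. It had 1 and 2 counts in d0, 7 and 14 in d3F, then 5 and 26 in d5FS, so that 1 d5FS library lay below both d3F libraries and the other above them. The ratio of d5FS to d0 was 13.5 with an exact 95% interval of 4.2 to 68.9 that covers counting error only, and the adjusted p was 0.0536. Six3 had at most 0.57 CPM in any library and was not tested. The neuroectoderm markers Sox1, Pax6, Neurog2 and Otx1 together stayed at 0.11 to 0.63 TPM in all libraries.

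Igf2os and Dio3os belong to imprinted hosts. Igf2 encodes an insulin-like growth factor of embryonic tissues. In GENCODE M21, Igf2os (chr7:142659693-142670356, plus strand) crosses the first part of Igf2 and shares 98 exon bases with it, and also shares exon bases with Gm49394. The RefSeq starts found for Igf2, on the minus strand, lie at 142666816, 142661271, 142658804 and 142657496. Transcripts from 142658804 or 142657496 do not reach the GENCODE start of the RNA. Igf2os had 1.04 and 0.899 CPM in d0, 2.11 and 4.88 in d3F, then 31.6 and 27.2 in d5FS. The populations did not overlap, and the largest step was the last.

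The log2 fold change of Igf2os was 4.80 ± 0.55 from d0 to d5FS (adjusted p = 0.00221) and 3.02 ± 0.49 from d3F to d5FS (adjusted p = 0.0307). That from d0 to d3F was 1.78 ± 0.51 (adjusted p = 0.0873) and did not pass. Igf2 moved in the same order, from 7.37 and 15.2 CPM in d0 through 31.3 and 76.3 in d3F to 1014 and 437 in d5FS (log2 fold change d0 to d5FS 5.83 ± 0.74, adjusted p = 0.00294). Among visceral endoderm markers, Ttr had 0 and 0.05 TPM in d0 and 4.82 and 5.82 in d5FS, and Afp 0.05 and 0.01 against 1.49 and 3.96. Amn had 0.7 and 0.52 TPM in d0 and 0.67 and 1.0 in d5FS, while Rhox5 was lower in d5FS, 28.14 and 38.36 against 16.64 and 17.72. The list of 4 with Amn and Rhox5 summed to 28.9 and 38.9 TPM in d0, 18.1 and 9.73 in d3F, then 23.6 and 28.5 in d5FS. The part of such cells in the rise of Igf2os was not tested.

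Dio3os, beside the thyroid hormone deiodinase gene Dio3, had too few counts for the test. It was counted at 0 and 1 in d0, 0 and 1 in d3F, then 6 and 7 in d5FS. The ratio of d5FS to d0 was 17.0, with an exact 95% interval of 2.55 to 721 for counting error. Dio3 was higher in d5FS than in d0 (log2 fold change 2.22, adjusted p = 0.0294). Peg3os, the third member beside an imprinted gene, was listed at 0.

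The other called RNAs lie beside genes of cell structure, signalling and metabolism. Dnm3os (chr1:162217623-162225550, plus strand) lies in an intron of Dnm3, which encodes a dynamin of the endocytic machinery. It is known as the precursor of miR-199a and miR-214, microRNAs of mesenchymal tissues. Their mature sequences are shown because they are read from the same strand within this RNA, on chr1 of GRCm38.p6, with the seed (bases 2 to 8), which pairs with target RNAs, in capitals.
mmu-miR-199a-5p: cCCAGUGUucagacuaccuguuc
mmu-miR-199a-3p: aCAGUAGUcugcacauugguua
mmu-miR-214-5p: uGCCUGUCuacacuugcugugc
mmu-miR-214-3p: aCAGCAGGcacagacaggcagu

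The 4 seeds differ from each other. The rows of the precursor genes Mir199a-2 and Mir214 were listed at 0 in all 6 libraries, which were not made for small RNAs. Dnm3os had 0 and 4 counts in d0, 0 and 4 in d3F, then 59 and 22 in d5FS. Both d5FS libraries were above the other 4, with replicate 1 well above replicate 2.

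Between d0 and d5FS, Dnm3os rose by 4.48 ± 1.30 in log2 (adjusted p = 0.0397), and the call was lost without d0 replicate 1, d5FS replicate 1 or d5FS replicate 2. The value was 3.44 without d0 replicate 1 and 8.57 without d0 replicate 2, where the d0 library left is at 0 and the fitted value is no bound. Dnm3 rose by 5.69 ± 0.99 on the log2 scale (adjusted p = 0.0073), from 4 and 1 counts in d0 to 130 and 92 in d5FS. The fibroblast markers Col1a1, Col1a2, Col3a1, Thy1 and Postn summed to 2.14 and 1.16 TPM in d0, 5.13 and 6.68 in d3F, then 23.5 and 11.97 in d5FS, none of them at 0 in d5FS. Thy1 had 1.31 and 0.30 TPM in d0 and 0.31 and 0.09 in d5FS, and the other 4 had higher values in both d5FS libraries than in both d0 libraries. Postn had 4.80 TPM in d5FS replicate 1 and 0.61 in replicate 2, the same order as Dnm3os. Their part in the rise of Dnm3os was not tested.

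Ppp2r2cos lies within Ppp2r2c, a regulatory subunit gene of protein phosphatase 2A, and shares no exon base with it. It had 3 and 2 counts in d0, 12 and 21 in d3F, then 17 and 20 in d5FS. Between d0 and d5FS this is a log2 fold change of 3.10 ± 0.78 (adjusted p = 0.0252). The call did not hold without any 1 of the 6 libraries. Ppp2r2c had 17.2 and 12.1 CPM in d0, 61.7 and 155 in d3F, then 54.2 and 152 in d5FS, a d0 to d5FS change of 2.74 ± 0.63 in log2 (adjusted p = 0.0187), which was 1.74 and not called without d5FS replicate 2. For both genes all d3F and d5FS libraries lay above those of d0.

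Cep83os and Frs3os differed while their hosts did not pass. Cep83 encodes a protein of the centriole's distal appendages, needed to start a cilium. Cep83os (chr10:94671025-94688576, minus strand) starts 78 bases from it. It shares exon bases with Gm49167 only. It had 0.498 and 0.314 CPM in d0, 2.11 and 1.64 in d3F, then 3.58 and 2.45 in d5FS, with no overlap between the populations.

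Between d0 and d5FS, Cep83os rose by 2.76 ± 0.57 in log2 (adjusted p = 0.0129), and the call was lost without d0 replicate 2 or d5FS replicate 1. Cep83 had 23.2 and 19.5 CPM in d0, 31.4 and 22.8 in d3F, then 28.7 and 24.2 in d5FS. The d0 to d5FS difference in log2 was 0.19 ± 0.29 (adjusted p = 0.67). Whether the change of the RNA and that of the host differ from each other was not tested.

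Frs3os lies in Frs3, an adaptor gene of FGF receptors, and shares 509 of its 1064 exon bases with it. It had 39 and 40 counts in d0, 14 and 5 in d3F, then 3 and 5 in d5FS. The d0 libraries were above the other 4. Between d0 and d5FS it fell by 3.01 in log2 (SE 0.72, adjusted p = 0.0212), and the call was lost without d0 replicate 2, d5FS replicate 1 or d5FS replicate 2. Frs3 had 6.52 and 8.76 CPM in d0 and 6.74 and 8.77 in d5FS, with a log2 fold change of -0.11 ± 0.41 (adjusted p = 0.871).

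Uckl1os crosses Uckl1, a gene related to uridine kinases, with 459 shared exon bases, and also shares bases with Zfp512b. It had 1.86 and 1.57 CPM in d0, 3.08 and 2.81 in d3F, then 5.59 and 4.57 in d5FS. The populations did not overlap. At a log2 fold change of 1.45 ± 0.45 from d0 to d5FS its adjusted p was 0.0498, just under the threshold. Uckl1 was higher too, by 1.35 ± 0.39 (adjusted p = 0.0388), and lost its call in 5 of the 6 fits without 1 library.

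Over the shorter steps few RNAs passed. From d0 to d3F, Lhx1os was the 1 RNA of 35 called, 2.86%, beside 4.70% of all genes in either direction, 2.80% higher, and 3.38% of the genes without a coding transcript. Without d3F replicate 1 the count was 2. From d3F to d5FS, Igf2os was the 1 called, beside 1.54% of all genes, 1.08% higher, and 0.965% of those without a coding transcript. That call was lost without d3F replicate 1, d5FS replicate 1 or d5FS replicate 2, which left 0 called by edgeR and 2, 3 and 2 at an unadjusted p under 0.05. At an unadjusted p under 0.05 in edgeR there were 10 of the 35 RNAs at the first step, 6 at the second and 12 between d0 and d5FS. The share of all genes at this cutoff was not computed, so these counts do not set the RNAs apart from other genes.

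By lists of host symbols, 22 members lie beside developmental TFs, 3 beside imprinted genes, 8 beside mitochondrial or RNA-processing genes and 85 beside others. Of the 5 RNAs tested beside TFs, 2 were higher in d5FS than in d0, beside 12.4% higher among all genes. The list does not hold every TF, and Msx1 and Sp3 are among those outside it. Between d0 and d5FS, Msx1os (log2 fold change 1.12, adjusted p = 0.266) and Sp3os (1.31, adjusted p = 0.105) were tested by edgeR and not called. Foxl2os had 11 and 7 counts in d0, 32 and 19 in d3F, then 36 and 8 in d5FS, so that the d5FS range held that of d3F. Zfhx2os had 9.99 and 18.1 counts in d0, 2.74 and 5.29 in d3F, then 10.9 and 18.3 in d5FS, and d0 and d5FS overlapped. Dlx6os1, Emx2os, Foxd2os, Nkx2-2os, Tbx3os2, Vax2os, Zeb2os and Zfp85os had 11 to 30.9 counts over the 6 libraries and were not tested. Zeb2os was highest in d3F, with 7 and 12.9 counts against 1 and 2 in d0 and 2 and 6 in d5FS. Its host Zeb2, a repressor TF of epithelial to mesenchymal transition, rose from d0 to d3F by a log2 fold change of 2.05 (adjusted p = 0.0409).

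None of the 6 RNAs tested beside mitochondrial or RNA-processing genes passed in any comparison by edgeR or by the DESeq2 Wald test, and at an unadjusted p under 0.05 there was 1, Atad3aos from d0 to d3F. Together these 8 members had 4.40 to 6.17 CPM in every library, while those beside TFs had 1.63 and 2.52 CPM in d0 and 13.1 and 16.4 in d5FS. Without Lhx1os the members beside TFs had 4.73 and 6.57 CPM in d5FS. Ppifos, beside the gene of mitochondrial cyclophilin D, had 39 and 38 counts in d0, 37 and 37 in d3F, then 36 and 22 in d5FS. Rbm3os, beside the cold-induced RNA-binding protein gene Rbm3, had 28 and 35, 35 and 28, and 13 and 23. Mccc1os, Tomm6os, Srrm4os and Atad3aos had 43 to 114 counts in all.

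Rab26os, Chd3os, Sp3os, Rab10os, Fam120aos, Phtf1os and Toporsos complete the 10 RNAs with most reads, and none of these 7 passed in any comparison by edgeR or by the DESeq2 Wald test. At an unadjusted p under 0.05 there was 1, Sp3os between d0 and d5FS. Rab26os had 4.67 to 11.5 CPM, the highest value in d0 replicate 2 and the lowest in d5FS replicate 2. Rab10os, beside a small GTPase gene, had 1.98 to 2.67 CPM over the 6 libraries. Sp3os, beside the gene of a zinc finger TF, had 1.13 and 1.48 CPM in d0 and 2.92 and 4.16 in d5FS. Igf2os, Rab26os and Lhx1os together made up 32.2% of the 7870 counts of all members.

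Both genes were tested in 33 pairs. Between d0 and d5FS the RNA and its host had log2 fold changes of the same sign in 26 of the 33. Of the 8 called RNAs, 6 had a host called in the same direction, 2 had a host that was not called, and none had a host called in the opposite direction. In 14 pairs without shared exon bases the sign was the same in 11, and 3 of the 4 called RNAs had a called host, which are Dnm3os, Lhx1os and Ppp2r2cos. In 17 pairs with shared exon bases it was the same in 14, and 3 of 4 again, which are Igf2os, Otx2os1 and Uckl1os. These classes are from GENCODE M21. For Otx2os1 transcripts from the RefSeq starts of the host do not reach the RNA, and for Igf2os those from some of them do not. Dnm3os and Ppp2r2cos share no exon bases with their hosts but lie within them. The part of unspliced host RNA in their counts was not tested.

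Across the 33 pairs, the log2 fold changes of RNA and host had a Pearson r of 0.853 with Lhx1os and Otx2os1 set at their lower bounds. The pairs share the 6 libraries and some share reads, so this is given as a description. By position, 2 of 6 tested head-to-head RNAs, 2 of 6 overlapping ones without shared exon bases, 4 of 19 with shared exon bases and 0 of 2 tail-to-tail RNAs were called in edgeR, beside 22.8% of all genes. The 2 tail-to-tail RNAs, Chd3os and Fbxl12os, gave 0 at an unadjusted p under 0.05 and 0 by the DESeq2 Wald test. The uncalled head-to-head RNAs were Atad3aos, Fam120aos, Map2k3os and Stamos.

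**Figure D4:**
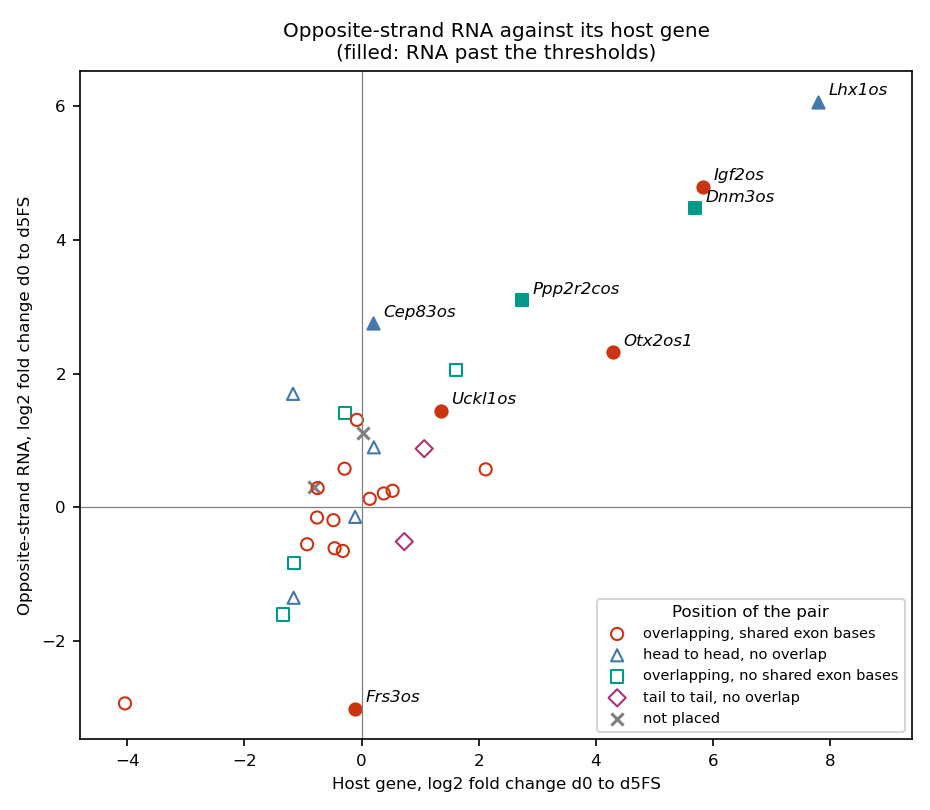
Log2 fold change from d0 to d5FS of the opposite-strand RNA (y axis) against that of its host gene (x axis) for 33 pairs, with symbols for the position of the pair and filled symbols for RNAs past the thresholds. Lhx1os and Otx2os1, at 0 in d0, are drawn at the lower bounds of their change. Cep83os and Frs3os lie near 0 on the x axis, and the other 6 called RNAs lie up and to the right.

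Among the hosts, 28 of 92 tested passed between d0 and d5FS, 30.4%, with 19 higher and 9 lower, beside 22.8% of all genes. At the first step 8 passed, beside 4.70% of all genes, and at the second 6, beside 1.54%. The count between d0 and d5FS was 12 without d5FS replicate 1 and 14 without d5FS replicate 2. From d0 to d3F it was 3 without d0 replicate 2, 2 without d3F replicate 2 and 5 without d5FS replicate 1 or d5FS replicate 2. From d3F to d5FS it was 1 without d3F replicate 2 and 0 without d3F replicate 1 or either d5FS library, where 12, 11 and 15 hosts had an unadjusted p under 0.05 in edgeR. For 20 of the 28 hosts the RNA had too few counts to be tested, for 2 it was tested and not called, and for 6 it was called.

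Hnf4a, a nuclear receptor TF of endoderm and liver, rose by a log2 fold change of 8.39 (adjusted p = 0.00271), from 2 and 4 counts in d0 to 687 and 1061 in d5FS. Hnf4aos was counted at 0 in both d0 libraries, at 2 and 0 in d3F, then at 4 and 3 in d5FS. Hnf4aos thus stayed at a few counts at this depth. Plxna4, a semaphorin receptor gene, and Plet1, a gene expressed in placenta, also rose, by 5.56 (adjusted p = 0.00195) and 4.11 (adjusted p = 0.00263). Plxna4os1 went from 0 and 0 counts in d0 to 4 and 4 in d5FS, and Plet1os from 0 and 0 to 5.07 and 2.04.

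Plekhd1os and Gad1os, picked after their values were seen, had more counts in d5FS than in d0, while their hosts were lower in d5FS. Plekhd1 fell by 2.93 on the log2 scale (adjusted p = 0.0126), while Plekhd1os had 0 and 0 counts in d0, 14 and 7 in d3F, then 5 and 2 in d5FS. Gad1, the gene of a GABA-synthesizing enzyme, fell by 2.95 (adjusted p = 0.033), while Gad1os had 0 and 1 counts in d0, 6 and 4 in d3F, then 6 and 10 in d5FS. Neither RNA was tested. Beside other hosts called lower in d5FS, Dnmt3aos also had more counts, 2 and 4 in d5FS against 0 and 0 in d0. Uchl1os had 8 and 12 counts in d0 and 1 and 1 in d5FS, Pcsk2os1 26.2 and 4 against 0 and 6. Pcsk2os2 had 2 and 6 against 0 and 4, and Tnk2os 6 and 16 against 7 and 4. Atcayos and Pla2g10os were listed at 0, and none of these RNAs was tested. Nphs1, the gene of nephrin in the kidney filter, fell by 4.04 (adjusted p = 0.0145), and Nphs1os had 8 and 29 counts in d0 and 1 and 3 in d5FS (log2 fold change -2.93 ± 1.04, adjusted p = 0.0742), so that the RNA did not pass. These 2 genes share 597 exon bases.

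Levels were compared per length in TPM for the 28 pairs with at least 50 counts in RNA and host. The mean TPM of the RNA was 0.141 of that of its host in the median pair, and the medians in single libraries were 0.0919 to 0.133. The ratio was under 0.1 in 12 pairs and above 1 in 2. The lowest was that of Rbm3os, 0.942 TPM beside 210 TPM of Rbm3, a ratio of 0.00449. Lhx1os reached 3.36 TPM beside 5.74 TPM of Lhx1, a ratio of 0.585, whereas Igf2os with 0.947 TPM stood at 0.0318 of Igf2. Rab26os had 12.9 to 51.5 TPM, 28.1 times the mean of Rab26, over a gene body that includes Snord60. Srrm4os, beside a neuronal splicing regulator gene, was the other above its host, at 0.112 against 0.052 TPM.

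**Figure D5:**
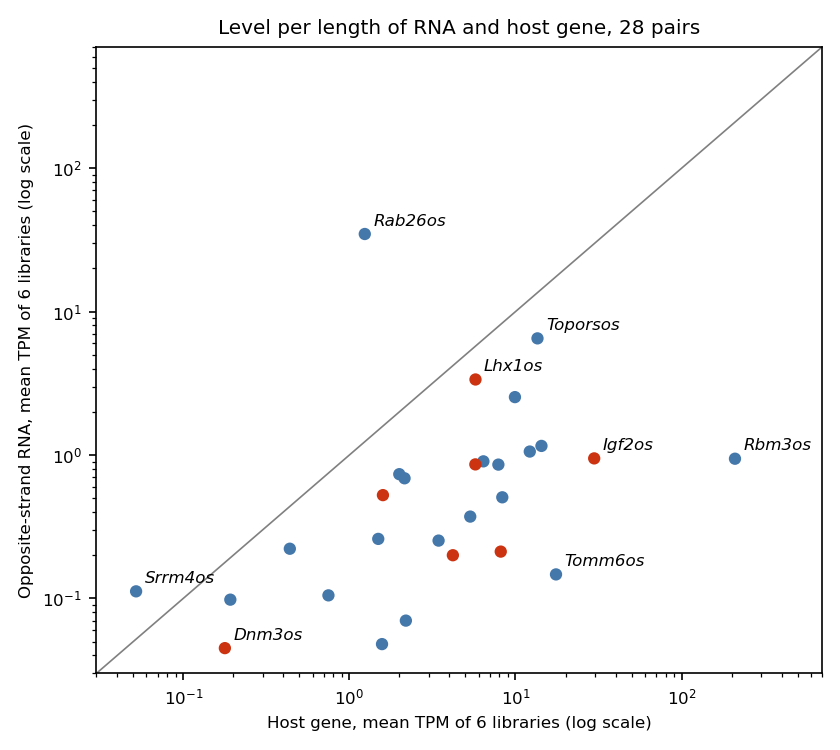
Mean TPM over the 6 libraries of the opposite-strand RNA (y axis, log scale) against that of its host gene (x axis, log scale) for 28 pairs, with RNAs called between d0 and d5FS in red, the others in blue and the line of equal levels in grey. Rab26os at 34.8 TPM and Srrm4os at 0.112 TPM lie above the line, and the other 26 lie below it.

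RefSeq promoter windows, from 250 bases before to 50 after a start, were found for 91 members, and for 6 of the 8 called ones in 7 windows. Motif letters were searched on both strands, and the Foxa forms share most of their letters. The Foxa letters TGTTTAC were in 3.65% of all 32851 windows. Another Foxa form, TGTTTGC, was in 5.07% of them. The Gata letters AGATAA were in 11.2% of these windows. TAATCC, which Otx2 and Gsc bind, was in 7.06% of all windows. The 7 windows held the Gata letters once, at a start of Uckl1os, and none of the other 3 motifs. The windows of members had a median of 8 CG dinucleotides and those of hosts 19, beside 7 in all windows. The median of the 7 windows of called RNAs was 5. Those of Lhx1os and Cep83os held 33 and 46, and those of Dnm3os, Uckl1os, Ppp2r2cos and Frs3os 3 to 7.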

How the data were processed

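RNA-seq of 6 libraries was used, 2 each of d0, d3F and d5FS. The authors depleted ribosomal RNA, made TruSeq V2 libraries, which do not mark strand, and aligned reads to mm10 (GRCm38) with STAR. Versions of STAR and RSEM are not given in the sources used here. The authors deposited RSEM expected counts, estimates of fragments per gene that are not normalized, and TPM, scaled per length by RSEM. CPM was computed from the deposited expected counts.

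Members, lists and tests were chosen with earlier results of these data known. Expected counts were rounded and fitted with edgeR 4.0.16 (filterByExpr, TMM, quasi-likelihood, all 6 libraries, no block, R 4.3.3) over 14539 genes with Benjamini-Hochberg adjustment. SE is the absolute log2 fold change over the root of F. DESeq2 1.42.0 and other filters, scalings and samples were alternatives. The fits were tested on simulated data. With 2 against 2, an exact permutation test cannot go below p = 0.33 and was not run. Same-numbered libraries correlated with r of 0.278 to 0.324 across genes, but the labels name no shared day or batch and the numbers were not used as pairs. Whether they mark the mRNA and total RNA libraries of the study's sample list is not given in the sources used here. Named were all called members, the 10 with the highest mean CPM, and those with at least 10 counts beside listed TFs, imprinted, mitochondrial or RNA-processing genes, each with its host. Others named were chosen after their values were seen. Positions are from GENCODE M21, and sequences from RefSeq (GRCm38.p6).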

Additional observations from a re-analysis of the deposited data

How the results depend on the processing

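From d0 to d5FS, 8 members and 28 hosts were called. With at least 10 counts in every library these were 2 of 15 tested and 15 of 72 tested, with fewer genes tested. They were 2 and 14 when DESeq2 tested for changes beyond 1 in log2. The share of all genes called in each setting is not given here, so the counts in this section cannot be set against it. At the first step, d0 to d3F, 1 member and 8 hosts became 2 and 14 with the DESeq2 Wald test, 0 (1 at an unadjusted p under 0.05 in edgeR) and 3 with at least 10 counts in every library, and 4 and 19 without a filter, and the hosts were 4 in a fit of the 2 populations only. From d3F to d5FS, 1 member became 3 with the Wald test and 3 without a filter, and 6 hosts became 12 without a filter and 10 in a fit of the 2 populations. Except where a changed number of genes or samples tested is named, the cause was not tested.

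Leaving out 1 library at a time, members called ranged from 1 to 2 (d0 to d3F), 0 to 1 (d3F to d5FS) and 2 to 7 (d0 to d5FS), and hosts from 2 to 11, 0 to 9 and 12 to 29. In a population left with 1 library, that library was assumed to vary like the others. The 12 reversed fold changes were all of genes not called in that comparison and all came from these fits. In these fits the log2 fold change ranged from -0.48 to 2.65 for Dnm3, -4.07 to 4.03 for Dnm3os (1.01 also had the other sign) and -1.17 to 0.90 for Nphs1os at the first step (d0 to d3F). At the second it ranged from -0.19 to 0.09 for Cep83 (0.02 also), -1.12 to 0.83 for Ppp2r2c (0.47 also), -0.02 to 1.10 for Ppp2r2cos and -0.78 to 1.61 for Six3os1, and from d0 to d5FS from -0.41 to 0.27 for Frs3 (0.11 also). The fold changes checked were those of the called RNAs, their hosts, Six3os1 and Nphs1os, and not those of every gene named. Of the others among them, 571 kept direction and side of the threshold, 59 fell below it and 22 rose above it.

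With the replicate number as a block (replicate block), 1, 1 and 9 members and 12, 9 and 32 hosts were called for the first step, the second step and d0 to d5FS. The labels do not say that the number marks a shared day.

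With at least 5 counts, members seen were 37 and 36 in d0, 42 in d3F replicate 2 and 45 and 51 in d5FS, and with TPM above 0.1 they were 30 and 22, 41 and 37, and 40 and 29. In d3F replicate 1 the 66 members with a count became 46 at 5 counts. Of the 6 pairs in which both genes changed in the same direction, 3 were left when only pairs without shared exon bases were used, since fewer pairs enter. The median ratio of levels was 0.129 by CPM per kb. At this depth 83 of 118 members were not tested.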

Other observations

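Crxos, one of the 31 names ending in os that have a coding transcript, had 6 and 28 counts in d0, 0 and 2 in d3F, then 7 and 9 in d5FS. Crx, the homeobox gene it is named after, had 0 and 0, 0 and 2, and 43 and 12. H19, the imprinted noncoding RNA next to Igf2, had 975 and 1159 counts in d0, 782 and 2035 in d3F, then 26219 and 14613 in d5FS.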
